A study of Bos taurus with 4 samples.

Results

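Heparan sulfate synthesis and its core proteins were examined in bovine blastocysts that had been cryopreserved as morulae, through 10 genes: HS3ST5, HS2ST1, HS6ST1, NDST1, EXT1, EXT2, SDC1, SDC4, GPC3 and GPC4. The set was built around HS3ST5, which was chosen by its vitrified against slow-frozen difference in these same pools. The remaining 9 genes were added as enzymes and core proteins of the same pathway. Every probe that the array's annotation assigns to one of the 10 symbols was taken, which gave 11 of the 43794 probes and 10 of the 15229 genes named on the array, with 2 probes for HS3ST5 and 1 for each other gene.

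Heparan sulfate is a long sugar chain that is built in the Golgi on a core protein and carried to the cell surface or into the extracellular matrix. EXT1 and EXT2 extend the chain, NDST enzymes start its sulfation, and 2-O-, 6-O- and 3-O-sulfotransferases then finish patterns that growth factors and other proteins bind. In early embryos such chains take part in fibroblast growth factor signalling and in the attachment of the trophectoderm, the epithelial layer around the cavity.

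All embryos were produced in vitro from oocytes of slaughterhouse ovaries and the semen of 1 bull, and collected as expanded blastocysts. The labels give day 7 for the collection, whereas by the methods day 7 was when the morulae were taken for cooling, before a further culture to the expanded stage. The vitrified group had been cooled as morulae on Cryotop carriers in a minimal drop with ethylene glycol, dimethyl sulfoxide and sucrose and plunged into liquid nitrogen. The slow-frozen group had been cooled in straws with glycerol at a controlled rate before the plunge. Each group had 4 pools of 7 blastocysts by the labels (the methods allow fewer). By the methods each production cycle, run on its own date, gave 1 pool per group, so that the groups share cycles, but the labels do not say which pools share one. Amplified RNA of each pool was labelled with Cy5 (replicates 1 and 2) or Cy3 (replicates 3 and 4) and hybridized to the EmbryoGENE EMBV3 oligonucleotide array. Only morulae that reached the expanded stage were pooled and, by the methods, each group was hybridized on a slide of its own, so that the cooling method, the selection of survivors and the slide cannot be told apart. No uncryopreserved embryos were used here.

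Levels below are log2 normalized intensities, and differences are vitrified minus slow-frozen on that log2 scale with the standard error (SE) of a linear model with group and dye, 4 pools against 4. A probe counted as above background in a pool when its raw value lay above a bound, the 95th percentile over 153 negative controls of that pool. It was kept when this held in at least 3 of the 4 pools of a group, which left 30034 probes. Because each gene has its own probe, levels are compared between pools and not between genes. The median intensity of a pool ranged from 109 to 384 raw units and its background bound from 81 to 332, so sensitivity differed between pools. On the first principal component, which held 24.8% of the variance, vitrified replicate 3 (56.6) and slow-frozen replicate 2 (-34.3) lay farthest from the other 6 pools.

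Of the 11 probes, 9 were kept, for 8 genes, and 6 of them were above background in all 8 pools. NDST1 and GPC3 had no kept probe. Of the 9 kept probes, 1 had no overlap between the groups, with every vitrified pool above every slow-frozen pool, against 1.48% of all kept probes. In the opposite direction there were 0, against 0.982%. In 3 of the 9 the vitrified mean was the higher one and in 6 the lower one. The median of the 9 differences was -0.06, beside 0.01 over all kept probes. Under the study's thresholds (a fold of at least 2 with an unadjusted p under 0.05), 0 of the 9 were called, against 0.19% of all kept probes. Since this contrast chose HS3ST5, nothing is read from these counts, here or under another way of processing, and no test is given for a member.

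**Figure D1:**
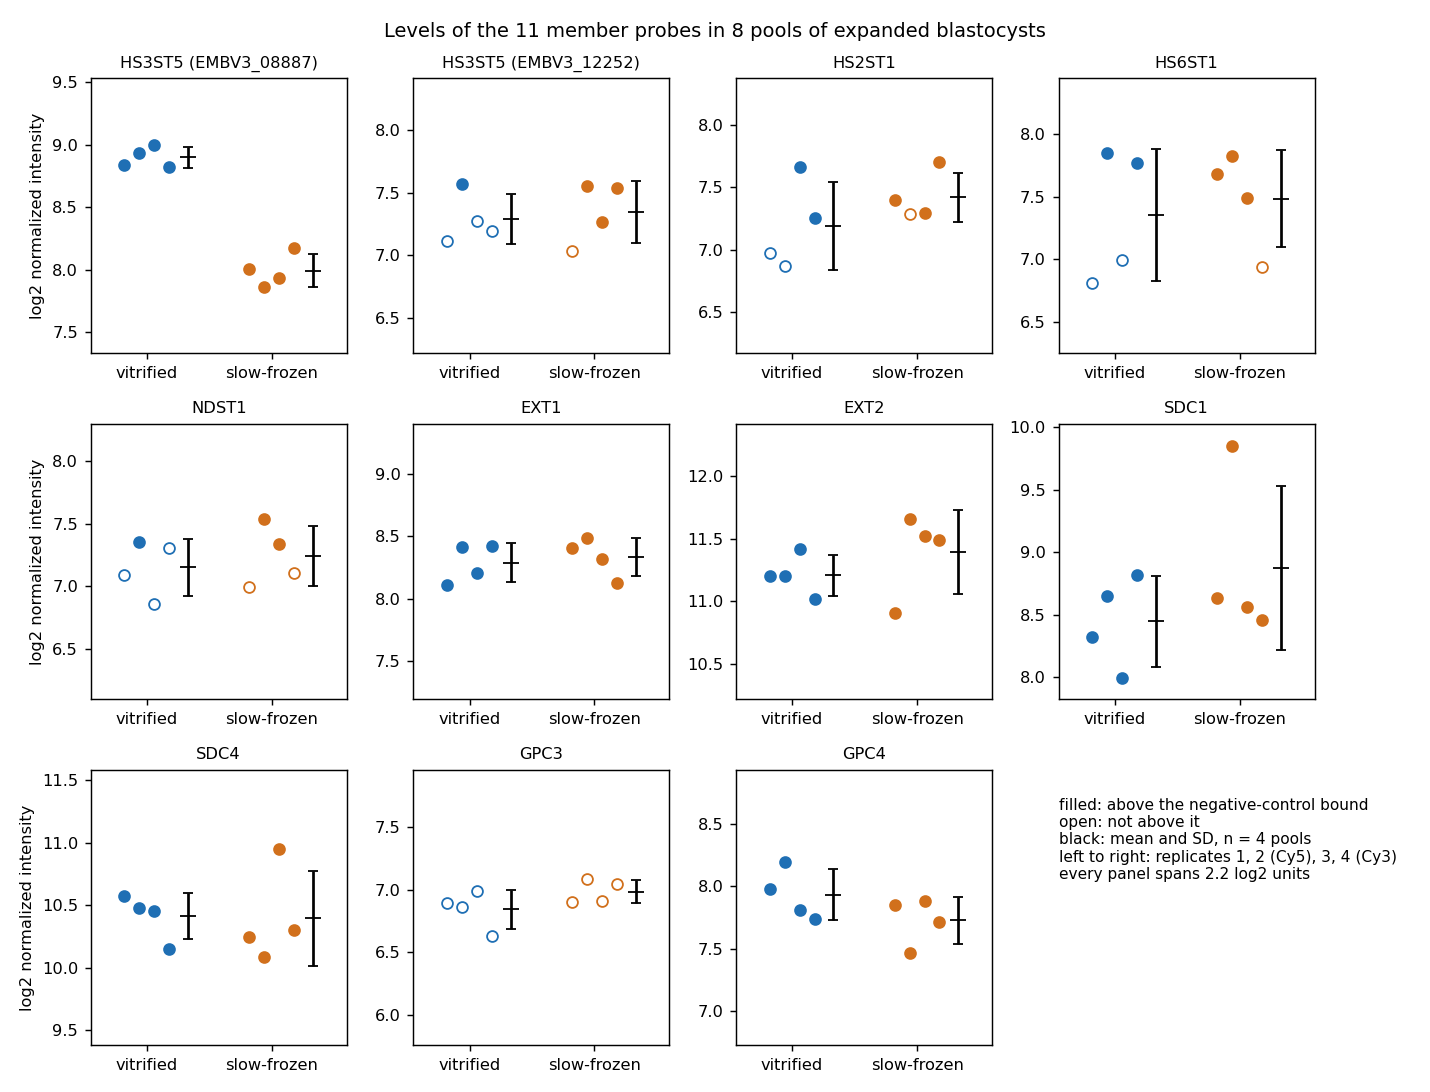
Log2 normalized intensity of each of the 11 member probes (y axis, every panel spanning 2.2 log2 units) in 4 vitrified pools (blue) and 4 slow-frozen pools (orange), with the mean and SD in black and open circles for pools not above background. The groups are apart only for the HS3ST5 probe EMBV3_08887, at 8.82 to 9.001 against 7.87 to 8.17.

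HS3ST5, which adds the rare 3-O-sulfate to glucosamine in heparan sulfate, was apart between the groups at the probe EMBV3_08887. Its level was 8.84, 8.93, 9.001 and 8.82 in vitrified replicates 1 to 4. It was 8.01, 7.87, 7.93 and 8.17 in slow-frozen replicates 1 to 4. The lowest vitrified pool lay 0.65 above the highest slow-frozen pool. The group means were 8.90 ± 0.08 and 7.99 ± 0.13 (SD, n = 4 each), a difference of 0.91 ± 0.13 (SE) or 1.87-fold. Of all kept probes, 30 (0.0999%) had a difference at least as high, this probe included. Since HS3ST5 was chosen by this difference, a high rank follows from the choice and nothing is read from it. The residual SD of the probe, 0.11, was the lowest of the 9 kept member probes and below the median of 0.24 over all kept probes.

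The signal before normalization is given as a description, since it comes from the pools that chose HS3ST5. In raw units the groups nearly met, with vitrified replicate 1 lowest of its group at 332 and slow-frozen replicate 4 highest of its group at 321. They were further apart relative to the background bound. The raw intensity of EMBV3_08887 was 4.10, 3.45, 2.19 and 3.11 times the background bound of the pool in vitrified replicates 1 to 4. It was 1.74, 1.70, 1.14 and 1.58 times the bound in slow-frozen replicates 1 to 4. All 8 pools therefore carried a signal above background, but HS3ST5 was dim in the slow-frozen pools and closest to the bound in replicate 3. Among the 12 kept probes printed within 2 rows and 2 columns of this spot, differences ran from -0.26 to 0.26 with a median of 0.07.

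The HS3ST5 difference is given by dye and by file as well. It was 0.95 between the Cy5 pools and 0.86 between the Cy3 pools. Each deposited file joins 1 vitrified and 1 slow-frozen pool of opposite dye, and the 4 differences between the channels of a file were 0.91, 0.76, 0.99 and 0.96. By the methods the 2 channels of a file come from different slides, so these are not differences within an array. Leaving out each pool in turn gave 0.87 to 0.96. Without the 2 pools that stood apart on the first component it was 0.88 (vitrified replicate 3) and 0.87 (slow-frozen replicate 2), each left out alone. With the groups apart at this probe, leaving out 1 pool could move the difference only little. Its size against the 2-fold line depended on the background correction. With plain background subtraction, as in the methods, the difference was 1.06 ± 0.18 (SE), or 2.09-fold. The count of members past the study's thresholds was then 1, beside 0.22% of all kept probes. With the deposited log2 ratios it was 1.08 ± 0.17 (SE), or 2.11-fold, and the count was again 1, beside 0.213%. These ratios come from the same pools. The deposited ratios of the 4 files were 1.55, 0.84, 0.84 and 1.09, all with the vitrified pool higher.

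The other HS3ST5 probe, EMBV3_12252, did not show this pattern. Its level was 7.11, 7.57, 7.27 and 7.19 in vitrified replicates 1 to 4 and 7.03, 7.55, 7.27 and 7.54 in slow-frozen replicates 1 to 4, with full overlap. The difference was -0.06 ± 0.17 (SE). The probe was above background in 1 vitrified and 3 slow-frozen pools, and its raw intensity was only 0.84 to 1.21 times the bound. Across the 8 pools the levels of the 2 HS3ST5 probes had a Pearson correlation of -0.10. The probe sequences and the transcript forms they match were not used here, so whether both report the same transcript was not tested.

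**Figure D2:**
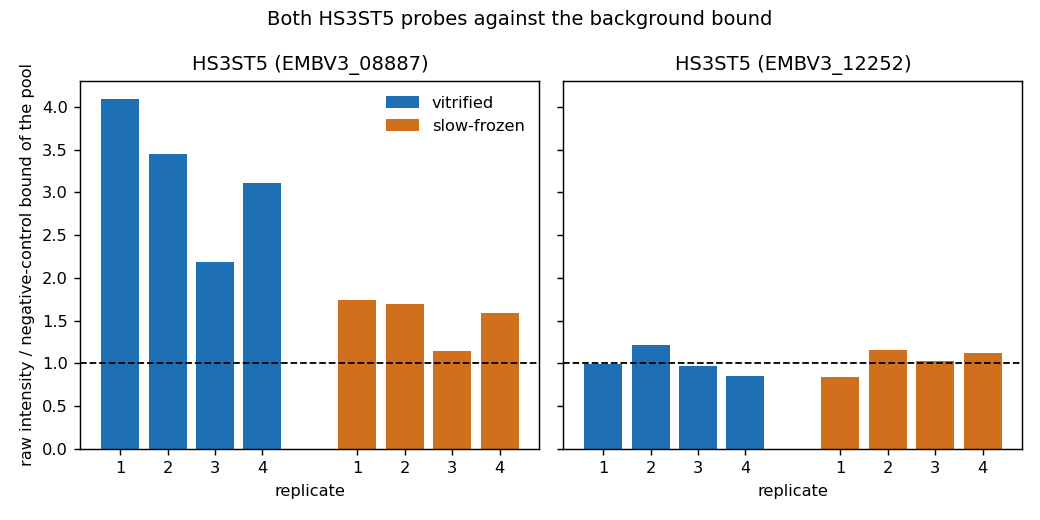
Raw intensity of both HS3ST5 probes divided by the negative-control bound of the pool (y axis, no unit; dashed line at 1) for replicates 1 to 4 of each group. EMBV3_08887 exceeds the bound in every pool, from 1.14 to 4.10, whereas EMBV3_12252 stays between 0.84 and 1.21.

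Some cell type markers also differed between the groups at an unadjusted p under 0.05. The mean level of 12 trophectoderm markers was 11.35 to 11.66 in the vitrified pools and 11.91 to 12.09 in the slow-frozen pools. Of these 12 genes, 11 were lower in vitrified blastocysts, 5 of them with an unadjusted p under 0.05 (DAB2, DLX3, PTGS2, TFAP2A and PAG2), against 4.81% of all kept probes. By its brightest probe, 1 of the 12 (PTGS2, -1.22) passed the study's thresholds, against 0.19% of all kept probes. In 1 (DAB2, -0.69) every slow-frozen pool was above every vitrified pool, against 0.982%. The 3 other kept DAB2 probes were at -0.42, 0.03 and 0.39, with overlap. Those of PTGS2 were at -1.01 and -0.69. TFAP2A was at -0.95 by its brightest probe and at -0.22 by its other kept probe. The mean level of 6 inner cell mass markers was 10.94 to 11.16 in the vitrified pools and 10.32 to 10.85 in the slow-frozen pools, with 5 of 6 higher and 3 of these (SPIC, PRDM14 and KLF4) at an unadjusted p under 0.05. In 2 of the 6, SPIC (0.81) and PRDM14 (0.68), every vitrified pool was above every slow-frozen pool, against 1.48% of all kept probes. The other kept probe of SPIC was at 0.44 and that of PRDM14 at 0.35, both with overlap. Neither list had a gene with an adjusted p under 0.05 in limma, whereas 0.00333% of all kept probes passed. The defining markers CDX2, GATA3, NANOG, SOX2 and POU5F1 were above background in all 8 pools, and none of these 5 passed an unadjusted p of 0.05. Their differences were -0.22 ± 0.17 (SE), -0.18 ± 0.16, -0.08 ± 0.74, 0.29 ± 0.17 and 0.36 ± 0.19. Hypoblast marker means overlapped, at 11.97 to 12.54 and 11.01 to 12.50. The means of cumulus and granulosa markers (7.97 to 8.19 and 8.01 to 8.25) and of blood cell markers (7.91 to 8.42 and 8.08 to 8.48) overlapped too. Of 4 blood cell genes, 3 were lower and 1 higher, with PTPRC (-0.42 ± 0.19, SE) at an unadjusted p under 0.05. SPI1 (-0.26 ± 0.13) had every slow-frozen pool above every vitrified pool, against 0.982% of all kept probes. It was above background in 1 vitrified and 4 slow-frozen pools. The defining granulosa genes AMH and FOXL2 were above background in 0 and 1 of the 8 pools, and HAS2 in 1. By their brightest probes, CYP19A1, STAR and INHBA of the same list were above background in all 8 pools. FSHR and PTX3 were above it in 7 pools and TNFAIP6 in 6. The globins HBA and HBB were above background in all 8. The part of the cell type balance in the HS3ST5 difference was not tested. In pooled whole blastocysts, fewer cells of a type and less RNA per cell cannot be told apart.

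**Figure D3:**
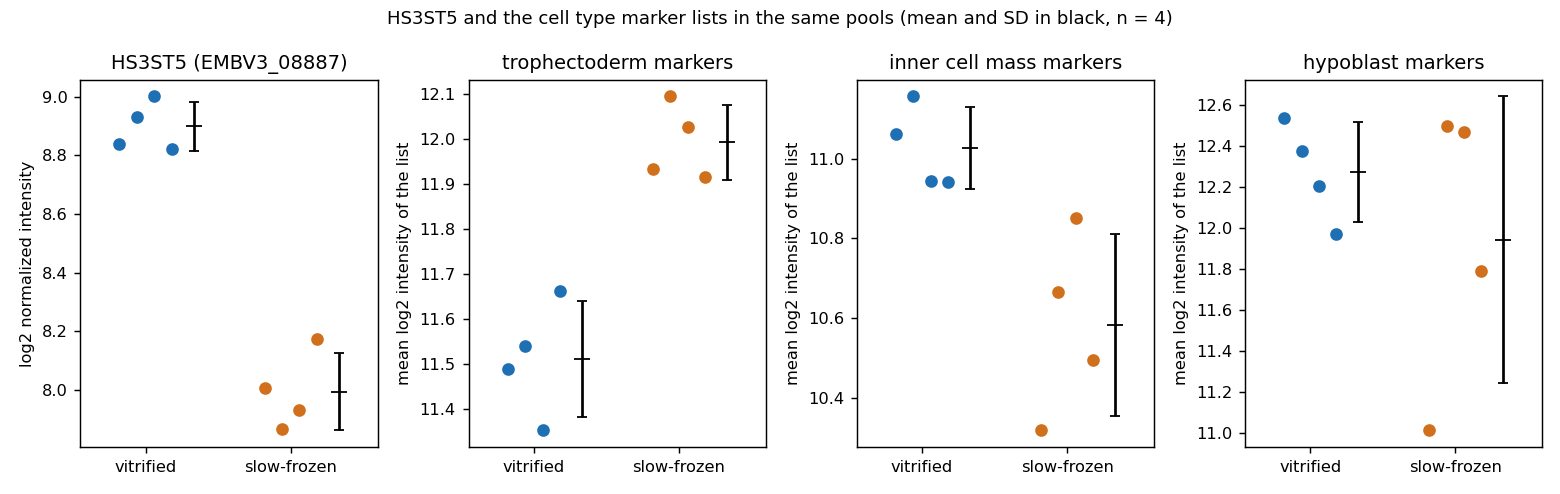
Level of HS3ST5 (EMBV3_08887) and mean log2 intensity of the trophectoderm, inner cell mass and hypoblast marker lists in the same 8 pools, with the mean and SD of 4 pools in black. HS3ST5 and the inner cell mass markers are higher in the vitrified pools and the trophectoderm markers lower, while the hypoblast markers overlap.

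The 5 named genes whose levels most resembled HS3ST5 over the 8 pools were TLK2, a kinase of chromatin assembly (Pearson r = 0.96), ODF3L2 (0.96), ZFAND5 (0.94), and the RNA-binding proteins HNRNPLL (0.94) and HNRNPDL (0.94). Their differences were 0.44, 0.26, 0.65, 0.44 and 0.51. Once each group's mean was taken out, the correlations with HS3ST5 were 0.64, 0.64, 0.50, 0.91 and 0.43, highest for HNRNPLL. The pools share dye, slide and file, and ODF3L2 was above background in only 4 of the 8 pools.

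The enzymes that extend the chain showed no such separation. EXT1 and EXT2 together form the polymerase that adds glucuronic acid and N-acetylglucosamine in turn. The level of EXT1 was 8.11, 8.41, 8.21 and 8.43 in vitrified replicates 1 to 4 and 8.41, 8.48, 8.32 and 8.13 in slow-frozen replicates 1 to 4. The groups covered nearly the same range, all 8 pools lying within 0.38, the narrowest span of the 11 probes. The difference was -0.05 ± 0.15 (SE), and it ran from -0.12 to 0.04 when 1 pool was left out.

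The level of EXT2 was 11.20, 11.20, 11.42 and 11.02 in vitrified replicates 1 to 4. It was 10.90, 11.66, 11.52 and 11.49 in slow-frozen replicates 1 to 4. Slow-frozen replicate 1 was thus the lowest pool of all, although the other 3 slow-frozen pools were above every vitrified pool. The difference was -0.19 ± 0.18 (SE), and without slow-frozen replicate 1 it was -0.36. Raw EXT2 intensity was 9.41 to 26.2 times the background bound, so signal did not limit this measurement.

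NDST1, which removes acetyl groups from the new chain and sulfates the freed nitrogen, was close to background. Its level was 7.09, 7.36, 6.86 and 7.31 in vitrified replicates 1 to 4 and 7.00, 7.54, 7.34 and 7.11 in slow-frozen replicates 1 to 4. Only 1 vitrified and 2 slow-frozen pools were above the bound, and the probe was not kept. In a fit of all probes without the filter on dim probes its difference was -0.09 ± 0.16 (SE).

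HS2ST1, the only 2-O-sulfotransferase of heparan sulfate in mammals, was likewise dim. Its level was 6.97, 6.87, 7.66 and 7.26 in vitrified replicates 1 to 4 and 7.40, 7.28, 7.30 and 7.70 in slow-frozen replicates 1 to 4. The 2 lowest pools, vitrified replicates 1 and 2, were not above background, nor was slow-frozen replicate 2, while vitrified replicate 3 was the second highest pool. The difference was -0.23 ± 0.16 (SE), with -0.42 between the Cy5 pools and -0.04 between the Cy3 pools. It was above background in 2 vitrified and 3 slow-frozen pools.

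HS6ST1, a 6-O-sulfotransferase, had the widest spread within groups among the sulfotransferases. Its level was 6.81, 7.85, 6.99 and 7.77 in vitrified replicates 1 to 4 and 7.68, 7.83, 7.49 and 6.94 in slow-frozen replicates 1 to 4. The 3 pools near 6.9 (vitrified replicates 1 and 3 and slow-frozen replicate 4) were not above background, and the other 5 were. The groups overlapped, with a difference of -0.13 ± 0.26 (SE) that ran from -0.34 without vitrified replicate 4 to 0.14 without vitrified replicate 1.

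HS6ST1 and EXT1 followed each other across the pools, with a Pearson correlation of 0.98 over 8 pools, the highest of the 36 pairs of kept member probes. The same 3 pools were low in both: EXT1 was 8.11, 8.21 and 8.13 there and 8.32 to 8.48 in the other 5. With the group means removed the correlation was again 0.98. Of the 30033 other kept probes, 1 had a higher correlation with EXT1 than HS6ST1 did, and the median correlation was 0.00. This pair was singled out after the values were seen. Only 1 other pair exceeded 0.7, EXT1 with SDC1 at 0.72, and the lowest of the 36 was -0.58, between SDC1 and GPC4.

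Syndecans are core proteins that span the membrane, and syndecan-1 is the typical one of simple epithelia. The level of SDC1 was 8.33, 8.65, 7.998 and 8.82 in vitrified replicates 1 to 4. It was 8.63, 9.85, 8.56 and 8.46 in slow-frozen replicates 1 to 4. Slow-frozen replicate 2 was 1.03 above the next highest pool of either group, vitrified replicate 4, and the other 7 pools overlapped. The difference of -0.43 ± 0.28 (SE) was the most negative of the member probes, but without slow-frozen replicate 2 it was -0.12. Slow-frozen replicate 2 was also the pool with the highest trophectoderm marker mean (12.09) and lay apart from its group on the first principal component, and the part of either in its SDC1 level was not tested. Between the Cy5 pools, which include it, the difference was -0.75, and between the Cy3 pools it was -0.10.

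SDC4, a broadly expressed syndecan of cell adhesions, had a level of 10.57, 10.47, 10.45 and 10.15 in vitrified replicates 1 to 4. In slow-frozen replicates 1 to 4 it was 10.25, 10.08, 10.95 and 10.30. Slow-frozen replicate 3 was the highest pool, and the other 3 slow-frozen pools lay among or below the vitrified ones. The difference was 0.02 ± 0.20 (SE), and 0.21 without slow-frozen replicate 3. It was 0.36 between the Cy5 pools and -0.32 between the Cy3 pools. Raw SDC4 intensity was 5.01 to 16.7 times the bound.

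Glypicans are core proteins held to the membrane by a lipid anchor. GPC3 was not above background in any of the 8 pools, with raw intensities of 0.83 to 0.93 times the bound, so no difference is given for it. The level of GPC4 was 7.98, 8.20, 7.81 and 7.74 in vitrified replicates 1 to 4 and 7.85, 7.46, 7.88 and 7.71 in slow-frozen replicates 1 to 4. Its highest pool was vitrified replicate 2 and its lowest slow-frozen replicate 2, and the other 6 lay between 7.71 and 7.98. The difference was 0.21 ± 0.16 (SE) and ran from 0.08 without slow-frozen replicate 2 to 0.28 without slow-frozen replicate 3. All 8 pools were above background for GPC4, at 1.15 to 2.06 times the bound.

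**Figure D4:**
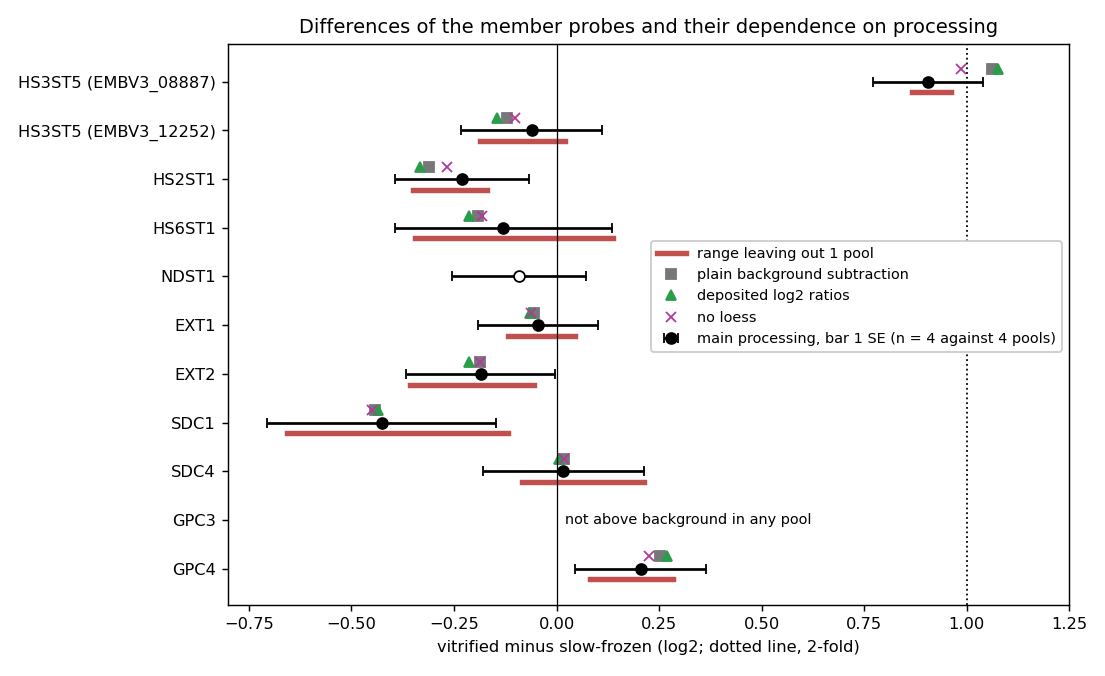
Vitrified minus slow-frozen difference (log2, x axis) of each member probe with 1 SE, the range when 1 pool was left out, and the values under 3 other ways of processing; NDST1 (open circle) is from the fit without the filter on dim probes. HS3ST5 (EMBV3_08887) lies between 0.87 and 1.08 and crosses the 2-fold line under plain background subtraction and with the deposited log2 ratios.

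The dye comparison did not use the contrast that chose HS3ST5 and could be tested. In limma 0 of the 9 kept member probes differed between Cy5 and Cy3 at an adjusted p under 0.05, against 0.0466% of all kept probes. At an unadjusted p under 0.05 there were also 0, against 7.28%. The Cy5 minus Cy3 differences of the members ran from -0.35 for HS2ST1 to 0.41 for SDC1.

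A wider set of 75 genes in 6 lists covered the rest of the pathway and its closest relatives. Of these, 67 had a probe and 48 a kept one, and the brightest kept probe stood for the gene. In vitrified blastocysts 20 were higher and 28 lower. At an unadjusted p under 0.05 there were 0 higher and 3 lower, or 6.25% of the 48, near the 4.81% of all kept probes. None of the 48 passed the study's thresholds, against 0.19% of all kept probes, or an adjusted p under 0.05 in limma, against 0.00333%. None separated the groups fully, against 1.48% of all kept probes with the vitrified pools above and 0.982% with them below. With shares this small, nothing about the pathway is read from these counts.

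The 3 genes were AGRN, SLC35B2 and CHPF. AGRN encodes agrin, a secreted core protein, and was 8.82 ± 0.17 in vitrified and 9.40 ± 0.54 in slow-frozen pools (SD), a difference of -0.59 ± 0.24 (SE, limma adjusted p = 0.98). Without slow-frozen replicate 2 it was -0.34. SLC35B2 carries the sulfate donor into the Golgi and was 11.65 ± 0.43 and 12.24 ± 0.25, a difference of -0.60 ± 0.20 (limma adjusted p = 0.926). CHPF, a factor of chondroitin chain extension, was 11.01 ± 0.42 and 11.59 ± 0.32, a difference of -0.58 ± 0.23 (limma adjusted p = 0.96). For all 3 the ranges of the groups overlapped. The number of lower genes was 5 with the deposited log2 ratios, and 1 without vitrified replicate 2, vitrified replicate 3 or slow-frozen replicate 2.

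The 4 measured genes of the tetrasaccharide linker, which ties the chain to its core protein, were all lower in vitrified pools, with a median of -0.21. B3GAT3, which adds the last linker sugar, was at -0.37 ± 0.18 (SE), but its other kept probe was at 0.22 ± 0.14. B3GALT6 (-0.22 ± 0.14), XYLT2 (-0.21 ± 0.15) and the xylose kinase FAM20B (-0.02 ± 0.17) did not pass an unadjusted p of 0.05 either. XYLT1 and B4GALT7 had no kept probe.

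The remaining enzymes of chain assembly and sulfation had a median of 0.06 over 6 genes, with 5 higher and 1 lower. HS6ST2 was at 0.19 ± 0.14 (SE), the epimerase GLCE at 0.12 ± 0.20 with its other kept probe at -0.02 ± 0.17, HS3ST6 at 0.05 ± 0.13 and HS6ST3 at 0.06 ± 0.16. HS3ST2 (-0.05 ± 0.24) and HS3ST6 were the only other 3-O-sulfotransferases kept, so HS3ST5 could be set beside few relatives. HS3ST6 was near background, above it in 3 vitrified and 2 slow-frozen pools. HS3ST4 had no probe, and HS3ST1, HS3ST3A1 and HS3ST3B1 were too dim to be kept. EXTL1, EXTL2, EXTL3, NDST3 and NDST4 were also too dim to be kept.

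The other core proteins had a median of -0.14 over 8 genes, 3 higher and 5 lower. Besides AGRN these included SDC2 at 0.26 ± 0.15 (SE), SDC3 at -0.22 ± 0.15 and GPC5 at -0.22 ± 0.15, none of which passed an unadjusted p of 0.05. Together with SDC1 and SDC4 of the members, the differences of the 4 syndecans lay on both sides of 0. GPC2, GPC6 and SRGN had no kept probe.

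The supply of sugar and sulfate donors was measured through 12 genes, with a median of -0.06, 4 higher and 8 lower. PAPSS1, which makes the sulfate donor, was at -0.48 ± 0.33 (SE), which became -0.29, -0.18 or -0.77 when vitrified replicate 1, 3 or 4 was left out and -0.30 when slow-frozen replicate 4 was. The other donor genes included UGP2 at 0.21 ± 0.18 and UAP1 at -0.20 ± 0.19. The 7 genes of editing and breakdown had a median of 0.02, 5 higher and 2 lower. The lysosomal enzyme GUSB was at 0.22 ± 0.19, NAGLU at 0.05 ± 0.14 and IDS at 0.05 ± 0.14. SUMF1, which activates sulfatases, was at -0.15 ± 0.16 with its other kept probe at 0.20 ± 0.15. The extracellular sulfatase SULF2 and the lysosomal enzyme IDUA were too dim to be kept.

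The chondroitin and dermatan sulfate branch, which competes for the same linker, had a median of -0.11 over 11 genes, 3 higher and 8 lower. Besides CHPF these included CHST12 at 0.20 ± 0.16 (SE), CHST14 at 0.17 ± 0.16 and CSGALNACT2 at -0.17 ± 0.15, the last with its other kept probe at 0.02 ± 0.14.

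**Figure D5:**
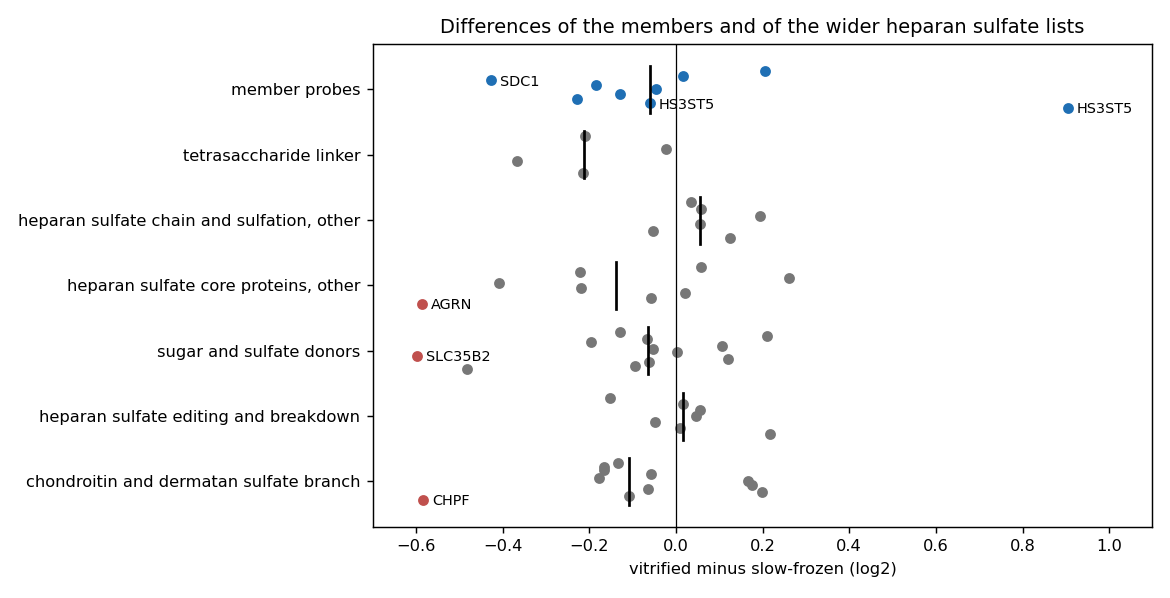
Vitrified minus slow-frozen difference (log2, x axis) of the 9 kept member probes (blue) and of the 48 measured genes of the 6 wider lists (grey; red for an unadjusted p under 0.05), with each list's median as a black bar. HS3ST5 (EMBV3_08887) lies at 0.91, away from every other point, and AGRN, SLC35B2 and CHPF lie near -0.6.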

How the data were processed

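Spot and background median intensities were deposited by the authors as Array-Pro output for both channels of 4 files, not normalized. The deposited value table held the authors' log2 ratios of Cy5 over Cy3 (correlation of at least 0.99999594 with ratios recomputed by plain subtraction and loess), and served as an alternative. Background was corrected by normexp (offset 50), followed by loess within files (whose channels the methods place on different slides) with control spots at weight 0 and quantile normalization over the 8 channels (R 4.3.3, limma 3.58.1). Of 45212 named spots, 1418 were controls, and 58 probes flagged as ignored were left out. The model held group and dye, was two-sided, with Benjamini-Hochberg adjustment across the 30034 kept probes. Alternatives were plain subtraction, no loess, no quantile step, other filters on dim probes, no dye term, file or replicate as a block, the deposited ratios, and leaving out each pool. By the methods the pools of a group come from separate production cycles shared by both groups, but no source ties a replicate number to a cycle. For want of such a source the numbers were not taken as pairs. Same-numbered pools deviated from their group means with correlations of -0.03 to 0.16 (-0.29 to -0.11 after the dye term). These values cannot decide the pairing, since same-numbered pools share a dye. Taking out group and dye lowers the correlation of such pools by construction. The number of arrays limits the precision. Symbols came from the platform annotation (21790 probes with 1 symbol, 22004 with none); 1524 were updated through RefSeq synonyms, and all 10 member symbols were current. No sequence or coordinate was used. The members and the lists were chosen with earlier results of these data known. All members were named, with the 4 genes of smallest p in each pathway list and the 5 genes most correlated with HS3ST5.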

Additional observations from a re-analysis of the deposited data

Results flagged for a closer look

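Among the 22 sets of 4 pools (11 member probes in each group), 1 held a pool far from the other 3. SDC1 in slow-frozen replicate 2 was at 9.85 on the log2 scale, and the other 3 slow-frozen pools were at 8.46 to 8.63, so that its gap to the nearest pool was 0.87 of the whole range, above Dixon's critical value for 4 samples. Chance marks about 1 in 20 such sets.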

How the results depend on the processing

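The number of members past the study's thresholds went from 0 to 1 with plain background subtraction and to 1 with the deposited log2 ratios, HS3ST5 in both. The single probe with an adjusted p under 0.05 was lost (0 probes) without loess, when all 8 pools had to be above background, with the replicate block and with the deposited log2 ratios. The count ranged from 0 to 1 when 1 pool was left out. Probes past the study's thresholds ranged from 32 to 103 around 57 when 1 pool was left out. They numbered 62 in the fit with the replicate number as a block, which cannot move a member difference in this balanced design. The median member difference ranged from -0.17 to 0.0093 when 1 pool was left out. Genes of the wider lists at an unadjusted p under 0.05 numbered 5 lower with the deposited log2 ratios and 4 with the file or the replicate block. Such genes of the wider lists ranged from 1 to 4 lower and from 0 to 1 higher when 1 pool was left out. Pools of the same file correlated at 0.27 to 0.42 after the dye term and at 0.04 to 0.09 without it. These pools are of opposite group and dye, and taking out both raises their correlation by construction. The rise is therefore not read as an effect of the file. Among named genes of the wider lists, leaving out 1 pool turned the sign of small differences, which then ranged from -0.136 to 0.093 for FAM20B, from -0.068 to 0.261 for GLCE, from -0.085 to 0.180 for HS6ST3, from -0.024 to 0.123 for NAGLU and from -0.015 to 0.122 for IDS. Averaging both probes turned SUMF1 to 0.025. Among the members, leaving out 1 pool also turned the small differences of the dim HS3ST5 probe, HS6ST1, EXT1 and SDC4. The cause was not tested. HS3ST5 (EMBV3_08887) lay between 0.87 and 1.08 under the alternatives, of which the filters on dim probes, the dye term and the blocks cannot move the estimate in this balanced design. Low signal over background limits NDST1, GPC3, HS2ST1, HS6ST1 and the HS3ST5 probe EMBV3_12252.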
